A study of Mus musculus with 12 samples.

Results

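The protocadherins measured in mouse striatum comprised 34 genes, of 19938 genes that had a probe set carrying a single gene symbol. They were taken by name, as every such symbol beginning with Pcdh, and where a gene had several such probe sets the one with the largest 12-array mean stood for it. Of the 34 genes, 22 were the Pcdhb1 to Pcdhb22 genes of the clustered beta family and 12 were non-clustered protocadherins. All 34 lay above the filter on low signal in 12 of 12 arrays and were tested among 16721 genes. No gene of the alpha or gamma cluster had a single-symbol probe set. The 12-array means chose the probe sets and no contrast between genotypes entered that choice, but the family was proposed with earlier results of these data known.

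RNA of the striatum was hybridised to Affymetrix whole-transcript arrays, with 3 arrays in each of 4 genotype groups of male mice aged 90 days. Q111 mGluR5-/- mice (HdhQ111/Q111, a homozygous knock-in of an expanded CAG repeat in the Huntington's disease gene Htt) lacked mGluR5, the metabotropic glutamate receptor encoded by Grm5, and Q111 mGluR5+/+ mice had it. Q20 mGluR5-/- mice carried the short-repeat control allele on both chromosomes (HdhQ20/Q20) and lacked the receptor, and Q20 mGluR5+/+ mice carried the control allele with the receptor. All 4 groups therefore carried a knock-in Htt allele, and all shared a mixed background of 129, CD-1, C57BL/6 and FV strains. Since the labels leave unsaid whether replicate arrays are different mice, p-values reflect the spread among these 12 samples, which may be technical. Which strain's alleles a mouse carried at the protocadherin genes is not given, and the part of strain in the results was not tested.

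Protocadherins are cell-surface adhesion molecules of the cadherin superfamily. The clustered genes lie in tandem arrays of alpha, beta and gamma genes, and each neuron expresses its own assortment of them through the choice of promoters, a choice in which the factor CTCF, cohesin and DNA methylation take part. Like isoforms bind each other across membranes, which lets the branches of one neuron recognise and avoid each other. Each beta gene encodes a whole protein in a single exon, without the constant cytoplasmic exons that the alpha and gamma genes share. The non-clustered genes of the delta1 and delta2 subfamilies are expressed more broadly across a cell population and act in axon growth, sorting and synapse formation.

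The targeted genes were examined first. Grm5 averaged 11.07 ± 0.08 in Q111 mGluR5-/- mice, against 11.94 ± 0.08 in Q111 mGluR5+/+ mice, and 11.06 ± 0.12 in Q20 mGluR5-/- mice, against 12.00 ± 0.07 in Q20 mGluR5+/+ mice (log2 signal, SD, n = 3 each). The fall of 0.87 in Q111 mice (limma adjusted p = 0.00017) and of 0.94 in Q20 mice (limma adjusted p = 0.000189) fitted the labels, although a signal remained in mice without the receptor. Htt signal was below every Q20 array in each of the 6 Q111 arrays, with no call (log2 difference -0.16 ± 0.08 with mGluR5, limma adjusted p = 0.782). Of all tested genes, 5.3% had the Q111 arrays wholly lower in mice with mGluR5 and 13.0% in mice without it. These shares are for each pair of groups. How many genes had every Q111 array below every Q20 array was not computed. Array medians lay between 7.05 and 7.16. The interquartile ranges of the arrays lay between 2.56 and 2.95, and replicate 2 had the widest one in each group. Markers of striatal projection neurons averaged 11.38, 11.36, 11.44 and 11.37 in Q111 mGluR5-/-, Q111 mGluR5+/+, Q20 mGluR5-/- and Q20 mGluR5+/+ mice (10 of 12 listed genes measured). With no sample of another tissue, these levels do not test the tissue label.

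All levels are log2 signals of the authors' normalised values, and all changes are differences on that scale. A gene was called at a limma adjusted p below 0.05 over all tested genes. Levels of different probe sets cannot be ranked against each other, so each gene is compared only with itself across groups. In bulk tissue, fewer cells of a type and less RNA per cell cannot be told apart.

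In the striatum, the main feature of the family was a crossing of the genotypes in the first stretch of the Pcdhb cluster. In Pcdhb2, Pcdhb3, Pcdhb4, Pcdhb6, Pcdhb7, Pcdhb8 and Pcdhb11 the mean signal was lower in both single-mutant groups (Q111 mGluR5+/+ and Q20 mGluR5-/-) than in the double mutant (Q111 mGluR5-/-) and in the double control (Q20 mGluR5+/+). The interaction (the effect of Q111 without mGluR5 minus its effect with mGluR5) was called and positive for 7 of the 34 protocadherins, all of them among the 22 Pcdhb genes. Over all tested genes 0.437% were called in the interaction and 0.215% were called higher. The median interaction was 0.36 over the Pcdhb genes and -0.09 over the non-clustered genes, against -0.01 over all tested genes. Pcdhb6 and Pcdhb11 were called in each of 12 fits that left out 1 array, while the number of calls became 2 without Q20 mGluR5+/+ replicate 3 and 3 without Q20 mGluR5+/+ replicate 2, Q20 mGluR5-/- replicate 1 or Q111 mGluR5-/- replicate 1. An unmoderated linear model called 0.

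**Figure D1:**
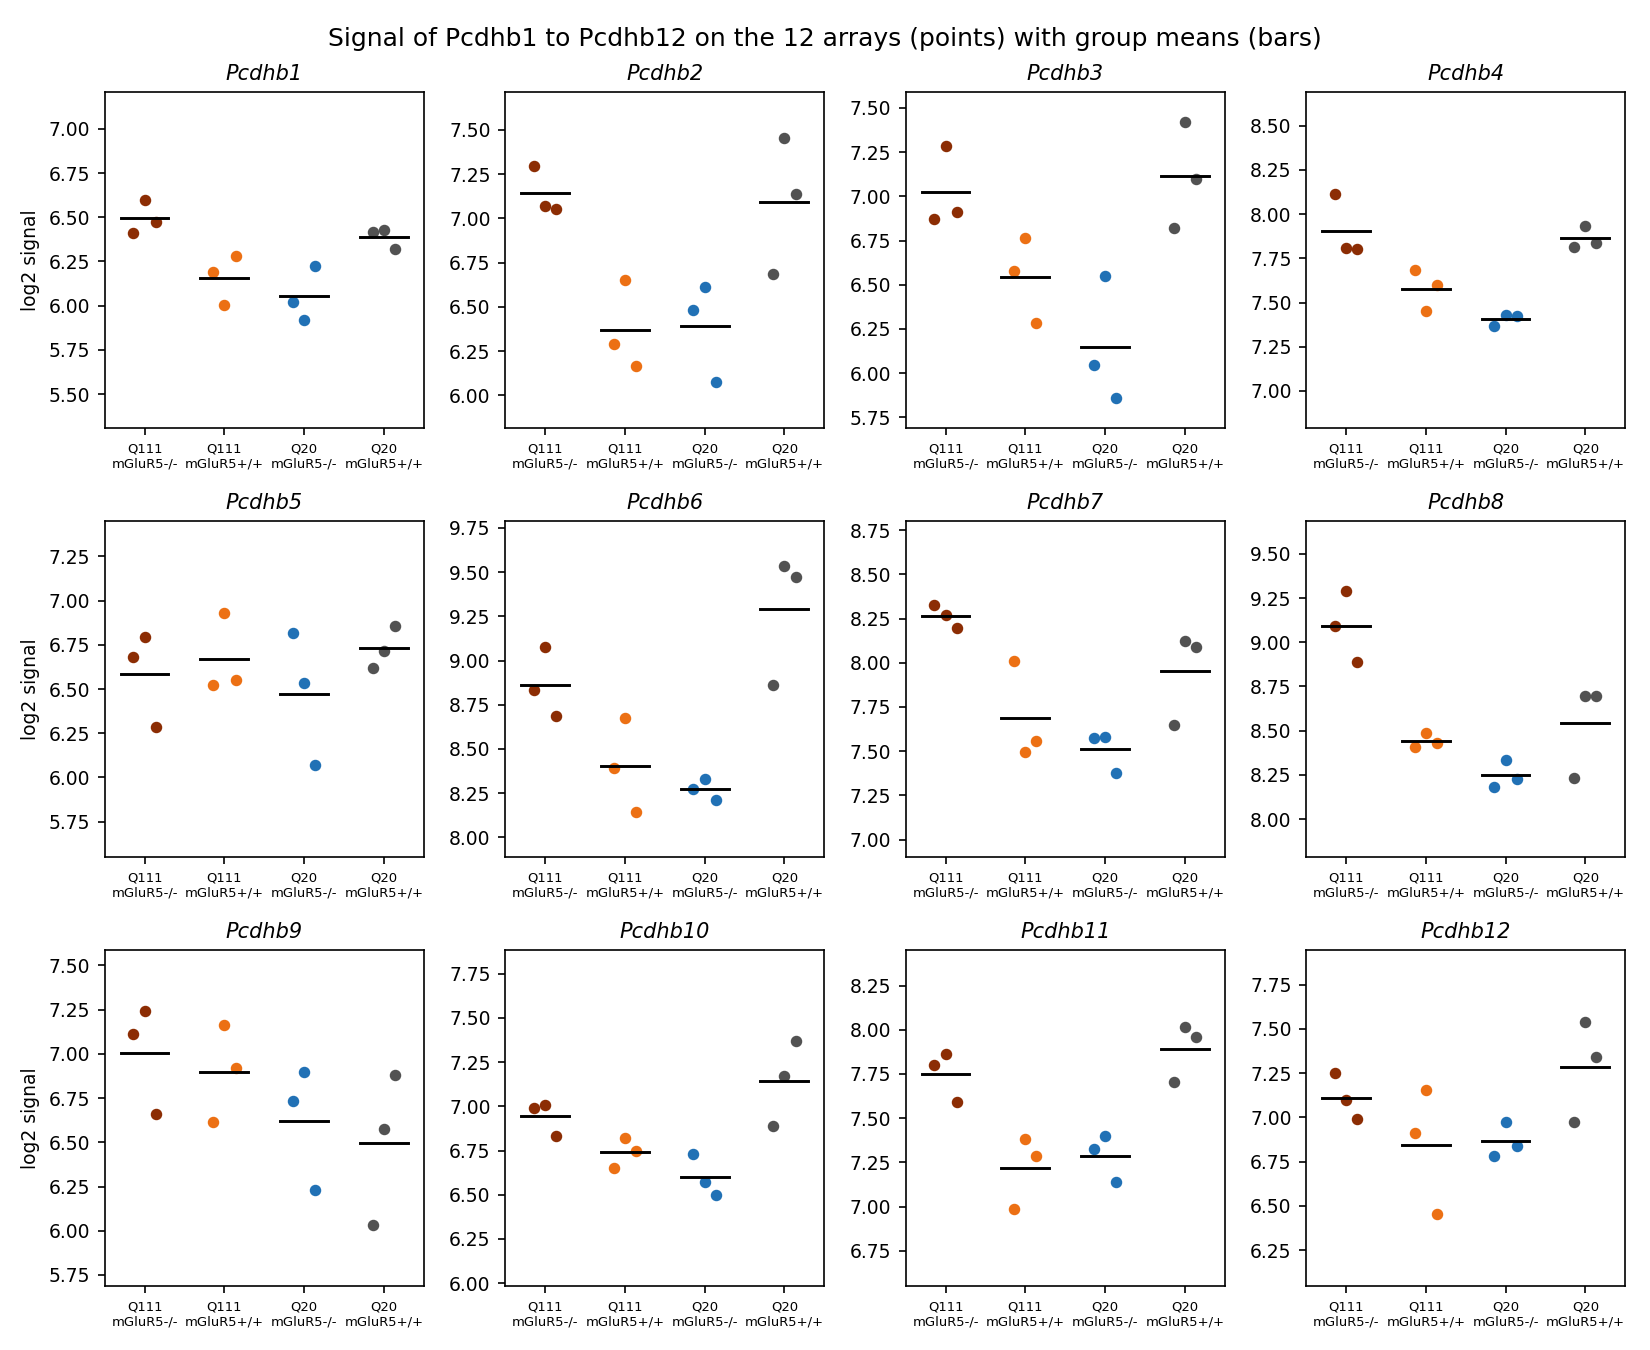
Log2 signal (vertical axes) of Pcdhb genes in each array, with the 4 genotype groups along the horizontal axes, points for arrays and lines for group means. In Pcdhb11 the 6 single-mutant arrays reach 7.40 at most, and the arrays of the Q111 mGluR5-/- and Q20 mGluR5+/+ groups start at 7.59.

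Pcdhb6, an adhesion isoform of the beta cluster like the others described here, had 8.83, 9.07 and 8.68 in Q111 mGluR5-/- mice and 8.39, 8.68 and 8.14 in Q111 mGluR5+/+ mice. It had 8.27, 8.33 and 8.21 in Q20 mGluR5-/- mice and 8.86, 9.54 and 9.47 in Q20 mGluR5+/+ mice. All 6 single-mutant arrays lay below all 6 other arrays, by a gap of 0.0075 between the nearest of them. Its interaction was 1.48 ± 0.24 (limma SE, adjusted p = 0.0101), a ratio of ratios of 2.79. Q20 mGluR5+/+ replicates 2 and 3 were the highest arrays, and replicate 1 of that group lay among the Q111 mGluR5-/- values.

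Pcdhb11 gave the smallest adjusted p of the family in the interaction. It had 7.80, 7.86 and 7.59 in Q111 mGluR5-/- mice and 6.99, 7.38 and 7.28 in Q111 mGluR5+/+ mice. It had 7.33, 7.40 and 7.14 in Q20 mGluR5-/- mice and 7.71, 8.01 and 7.96 in Q20 mGluR5+/+ mice. The single-mutant arrays were again all lower than the rest, here by a gap of 0.19, and the interaction was 1.14 ± 0.18 (limma adjusted p = 0.008).

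Pcdhb2 had 7.30, 7.07 and 7.05 in Q111 mGluR5-/- mice and 6.29, 6.65 and 6.16 in Q111 mGluR5+/+ mice. It had 6.48, 6.61 and 6.08 in Q20 mGluR5-/- mice and 6.69, 7.45 and 7.14 in Q20 mGluR5+/+ mice. Replicate 1 of the Q20 mGluR5+/+ mice lay only 0.04 above the highest single-mutant array. The interaction was 1.48 ± 0.26 (limma adjusted p = 0.0181), with differences of like size in all 4 pairwise comparisons, none of which was called on its own.

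Pcdhb3 had 6.87, 7.29 and 6.91 in Q111 mGluR5-/- mice and 6.58, 6.76 and 6.29 in Q111 mGluR5+/+ mice. It had 6.04, 6.55 and 5.86 in Q20 mGluR5-/- mice and 6.82, 7.42 and 7.10 in Q20 mGluR5+/+ mice. The lowest of these, replicate 3 of the Q20 mGluR5-/- mice, lay within the range of the arrays' 25th percentiles (5.69 to 5.94), the level of the filter. Its interaction was 1.45 ± 0.26 (limma adjusted p = 0.024).

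Pcdhb4 varied little within groups. It had 8.11, 7.81 and 7.80 in Q111 mGluR5-/- mice and 7.68, 7.45 and 7.60 in Q111 mGluR5+/+ mice, while it had 7.37, 7.43 and 7.42 in Q20 mGluR5-/- mice and 7.82, 7.93 and 7.84 in Q20 mGluR5+/+ mice. The single-mutant arrays were all below the others by at least 0.12, and the interaction was 0.79 ± 0.14 (limma adjusted p = 0.0233).

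In Pcdhb7 and Pcdhb8 the Q111 mGluR5-/- mice stood highest of the 4 groups. Pcdhb7 had 8.32, 8.27 and 8.20 in Q111 mGluR5-/- mice and 8.01, 7.50 and 7.56 in Q111 mGluR5+/+ mice, with 7.58, 7.58 and 7.38 in Q20 mGluR5-/- mice and 7.65, 8.12 and 8.09 in Q20 mGluR5+/+ mice. Pcdhb8 had 9.09, 9.29 and 8.89 in Q111 mGluR5-/- mice and 8.41, 8.49 and 8.43 in Q111 mGluR5+/+ mice, with 8.18, 8.34 and 8.23 in Q20 mGluR5-/- mice and 8.23, 8.70 and 8.70 in Q20 mGluR5+/+ mice. Their interactions were 1.02 ± 0.20 (limma adjusted p = 0.0398) for Pcdhb7 and 0.94 ± 0.18 (limma adjusted p = 0.0328) for Pcdhb8. Unlike in the 5 genes above, the single-mutant arrays overlapped the rest in both genes. In Pcdhb7 replicate 1 of the Q111 mGluR5+/+ mice lay above replicate 1 of the Q20 mGluR5+/+ mice, and in Pcdhb8 that Q20 mGluR5+/+ array lay at the level of the single mutants.

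Pcdhb1 and Pcdhb10 had the same order of groups without a call. Pcdhb1 had 6.41, 6.60 and 6.47 in Q111 mGluR5-/- mice and 6.19, 6.00 and 6.28 in Q111 mGluR5+/+ mice, with 6.02, 5.92 and 6.22 in Q20 mGluR5-/- mice and 6.42, 6.43 and 6.32 in Q20 mGluR5+/+ mice. Its interaction was 0.67 ± 0.15 (limma adjusted p = 0.0723). Pcdhb10 averaged 6.94 ± 0.10 in Q111 mGluR5-/- mice, 6.74 ± 0.08 in Q111 mGluR5+/+ mice, 6.60 ± 0.12 in Q20 mGluR5-/- mice and 7.14 ± 0.24 in Q20 mGluR5+/+ mice (SD, n = 3 each), with an interaction of 0.75 ± 0.17 (limma adjusted p = 0.0823). Both showed all 6 single-mutant arrays below all 6 others, by gaps of only 0.04 in Pcdhb1 and 0.02 in Pcdhb10. The standard deviations within groups were larger, at 0.12 and 0.15. With Pcdhb2, Pcdhb3, Pcdhb4, Pcdhb6 and Pcdhb11 they made 7 protocadherins with this complete separation, a pattern defined after the values were seen, which 0.179% of the tested genes (30 of 16721) showed. The opposite separation was seen in 0.185% of the tested genes and in 0 protocadherins.

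Pcdhb12 had an interaction of 0.69 (95% interval 0.20 to 1.18, limma adjusted p = 0.562), with overlapping arrays. Pcdhb5 and Pcdhb9 did not share the order of groups. Pcdhb5 averaged 6.59 ± 0.27, 6.67 ± 0.23, 6.47 ± 0.38 and 6.73 ± 0.12 in Q111 mGluR5-/-, Q111 mGluR5+/+, Q20 mGluR5-/- and Q20 mGluR5+/+ mice (SD, n = 3 each), and its interaction was 0.17 (95% interval -0.36 to 0.70). Pcdhb9 averaged 7.00 ± 0.31, 6.90 ± 0.27, 6.62 ± 0.35 and 6.50 ± 0.43 in the same groups, and its interaction was -0.02 (95% interval -0.68 to 0.64). Their intervals are wide, since the standard deviation within groups was 0.26 for Pcdhb5 and 0.34 for Pcdhb9, against 0.11 for Pcdhb4.

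The remaining genes, Pcdhb13 to Pcdhb22, lay at the other end of the cluster and had no call in the interaction, with 0 of 10 at an unadjusted limma p below 0.05, as 5.37% of all tested genes were. Their interactions ran from -0.42 in Pcdhb17 to 0.38 in Pcdhb15. Between these lay Pcdhb13 (0.35), Pcdhb14 (0.17), Pcdhb18 (0.03), Pcdhb20 (-0.08), Pcdhb16 (-0.09), Pcdhb21 (-0.12), Pcdhb22 (-0.19) and Pcdhb19 (-0.25). The intervals of Pcdhb13 (-0.22 to 0.93) and Pcdhb15 (-0.09 to 0.84) reach the positive values called elsewhere in the cluster, while those of Pcdhb17 (-0.84 to 0.00) and Pcdhb22 (-0.62 to 0.25) stay below them. The median interaction was 0.86 over Pcdhb1 to Pcdhb12 and -0.09 over Pcdhb13 to Pcdhb22, a division made after the values were seen. The difference between the stretches itself was not tested.

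The Pcdhb genes lie on chromosome 18 between 37264998 and 37521419 (GRCm38.p6) in the order of their numbers. Across the 22 genes the interaction declined along this order with a Spearman correlation of -0.79, which describes genes of the same arrays that are not independent. The same correlation of order with mean signal was 0.40, and of mean signal with the interaction -0.11. Both of these rank signals of different probe sets, which cannot be ranked as levels of the genes, so they describe probe set signal only. Genes of such a family are alike in sequence, and how far a probe set also detects other members is not given in the sources used here, so single-gene values within the cluster are uncertain to that extent.

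**Figure D2:**
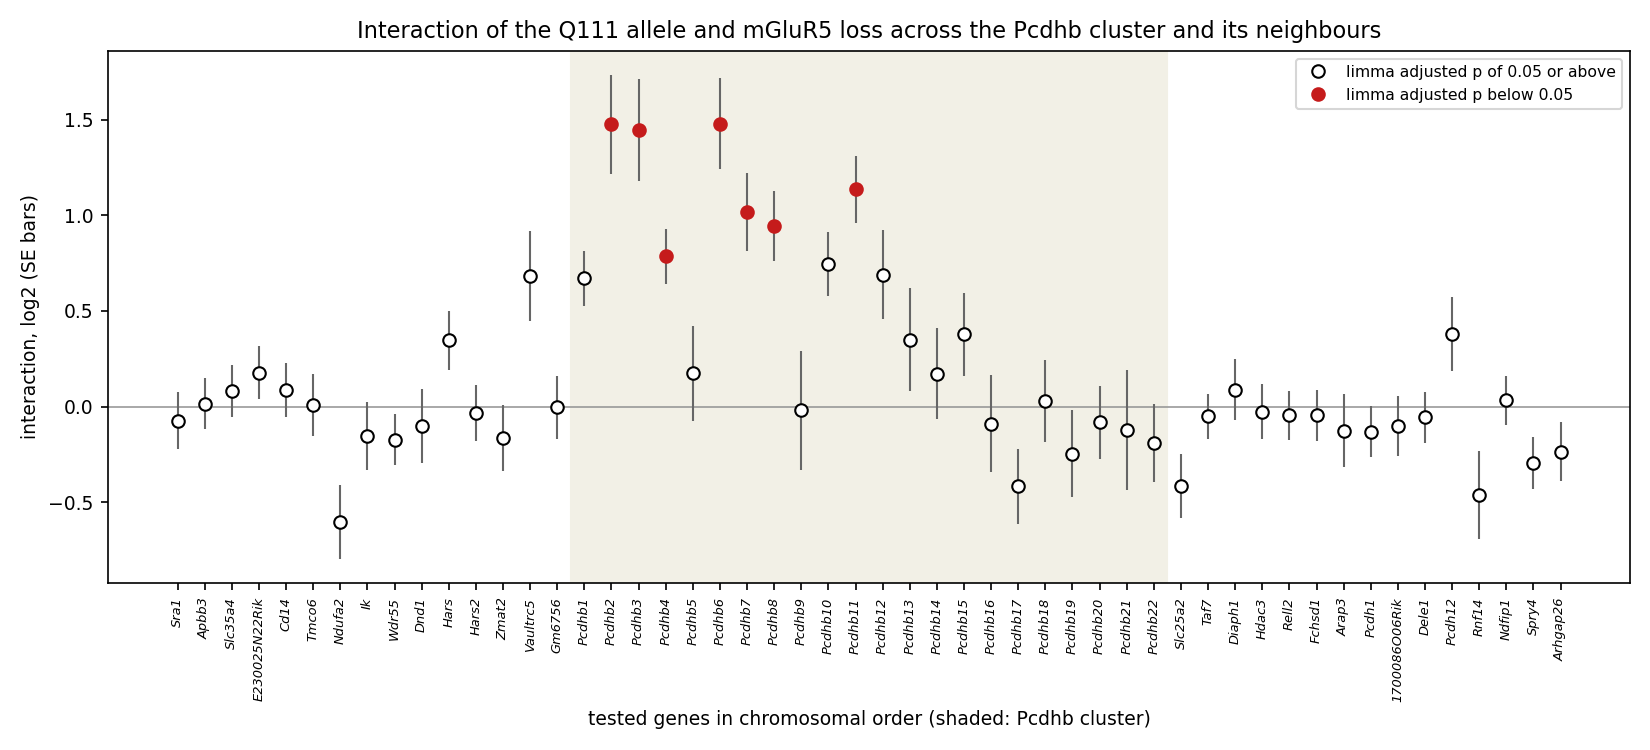
Interaction of the Q111 allele and mGluR5 loss (vertical axis, log2, bars for the limma SE) for the Pcdhb genes and the tested genes around them in chromosomal order (horizontal axis), filled where called. The 7 called genes lie between Pcdhb2 and Pcdhb11, and no gene shown outside the cluster is filled (0.437% of all tested genes were called).

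The flanking genes served as a comparison on the same chromosome. Of the 15 tested genes before the cluster and the 13 after it that are not protocadherins, 0 were called in the interaction by limma. Over all tested genes 0.437% were called. The medians of the 2 flanks were -0.00 and -0.05. An unadjusted limma p was below 0.05 for 3 of the 15 and 2 of the 13 genes, and for 5.37% of all tested genes. The smallest were those of Ndufa2, a subunit gene of respiratory complex I (interaction -0.60 ± 0.19, adjusted p = 0.485), and of Vaultrc5, a vault RNA gene (0.68 ± 0.23, adjusted p = 0.583). Slc25a2, a mitochondrial carrier gene, and Taf7, a transcription factor subunit gene, are the first tested genes past Pcdhb22, with interactions of -0.41 ± 0.17 (limma adjusted p = 0.795) and -0.05 ± 0.12. Among the flanking genes the only calls in any comparison fell in Q111 against Q20 mice without mGluR5, where Vaultrc5 rose by 0.93 ± 0.17 (limma adjusted p = 0.0124) and Rnf14, a ubiquitin ligase gene, fell by 0.78 ± 0.16 (limma adjusted p = 0.032). These were 1 of the 15 genes before the cluster and 1 of the 13 after it, while 0.885% of all tested genes were called in that comparison.

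The crossing was then seen pair by pair. Over Pcdhb1 to Pcdhb12 the median change against Q20 mGluR5+/+ mice was -0.34 in Q111 mGluR5+/+ and -0.45 in Q20 mGluR5-/- mice. In the double mutant it was 0.48 against Q20 mGluR5-/-, 0.40 against Q111 mGluR5+/+ and -0.02 against Q20 mGluR5+/+ mice. In Q111 mGluR5+/+ against Q20 mGluR5+/+ mice, which asks what the expanded allele does when the receptor is present, 2 protocadherins fell and 0 rose, while 0.275% of all tested genes were called lower and 0.574% were called in either direction. Pcdhb6 fell by 0.89 ± 0.17 (limma adjusted p = 0.0232) and Pcdhb11 by 0.67 ± 0.12 (limma adjusted p = 0.0191). In 18 of 22 Pcdhb genes the difference was negative, with a median of -0.21 against -0.01 over all tested genes, and 54.1% of all tested genes had a negative difference. In 7 Pcdhb genes the 3 arrays of each group did not overlap and Q111 mGluR5+/+ was lower, as in 5.3% of all tested genes. Pcdhb2 (-0.73, adjusted p = 0.125) and Pcdhb3 (-0.57, adjusted p = 0.36) were among these by limma. The number of calls became 0 without Q20 mGluR5+/+ replicate 2, Q20 mGluR5+/+ replicate 3 or Q111 mGluR5+/+ replicate 1, and 1 without Q111 mGluR5+/+ replicate 3.

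In Q111 mGluR5-/- against Q20 mGluR5-/- mice, which puts the same question without the receptor, 4 protocadherins rose and 0 fell, while 0.341% of all tested genes were called higher and 0.885% in either direction. Pcdhb8 rose by 0.84 ± 0.13 (limma adjusted p = 0.00315), Pcdhb3 by 0.87 ± 0.19 (adjusted p = 0.0395), Pcdhb7 by 0.75 ± 0.14 (adjusted p = 0.0189) and Pcdhb4 by 0.50 ± 0.10 (adjusted p = 0.0286). The arrays of the groups did not overlap, with Q111 mGluR5-/- higher, in 10 Pcdhb genes, as in 6.07% of all tested genes. These 10 were Pcdhb1 to Pcdhb12 without Pcdhb5 and Pcdhb9. At the other end Pcdhb16, Pcdhb17 and Pcdhb19 did not overlap in the opposite direction (differences of -0.46, -0.41 and -0.44, limma adjusted p between 0.289 and 0.401), as 13.0% of all tested genes did. Pcdhb8 was called in each of 12 fits that left out 1 array. It was the only call without Q20 mGluR5-/- replicate 1, Q111 mGluR5-/- replicate 1 or Q111 mGluR5-/- replicate 2, and 1 of 2 without Q20 mGluR5-/- replicates 2 or 3 or Q111 mGluR5-/- replicate 3.

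Loss of mGluR5 in Q20 mice, with the short-repeat allele in both groups, lowered 2 protocadherins and raised 0, while 0.161% of all tested genes were called lower and 0.299% in either direction. Pcdhb6 fell by 1.02 ± 0.17 (limma adjusted p = 0.0123), a fold of 2.03 between the groups, and Pcdhb3 fell by 0.96 ± 0.19 (limma adjusted p = 0.0404). The difference was negative in 18 of 22 Pcdhb genes, with a median of -0.29 against 0.02 over all tested genes, of which 43.0% had a negative difference, and 8 of them had the Q20 mGluR5-/- arrays wholly below the others (4.92% of all tested genes did). This comparison and that of Q111 mGluR5+/+ with Q20 mGluR5+/+ share their Q20 mGluR5+/+ arrays, so their likeness is no separate evidence. The number of calls became 0 without Q20 mGluR5+/+ replicates 2 or 3 or Q20 mGluR5-/- replicates 1 or 3, 1 without Q111 mGluR5-/- replicates 1 or 3, and 5 without Q111 mGluR5+/+ replicate 2.

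Loss of mGluR5 in Q111 mice gave 0 calls among the protocadherins by limma, while 0.275% of all tested genes were called. The nearest was Pcdhb8 (0.65 ± 0.13, adjusted p = 0.0511), followed by Pcdhb11 (0.53 ± 0.12, adjusted p = 0.13) and Pcdhb2 (0.77 ± 0.18, adjusted p = 0.143). Unadjusted limma p-values were below 0.05 for 10 of the 34 genes and for 4.36% of all tested genes. An unmoderated linear model called 0 protocadherins and 23 of all tested genes. A fit with a covariate for each array's interquartile range called 3 (Pcdhb2, Pcdhb8 and Pcdhb11) and 150 of all tested genes, against 46 in the main fit. In 9 Pcdhb genes all Q111 mGluR5-/- arrays lay above all Q111 mGluR5+/+ arrays, as in 3.77% of all tested genes. Leaving out Q20 mGluR5+/+ replicate 1 or Q111 mGluR5-/- replicate 3 brought a call of Pcdhb8, and leaving out Q111 mGluR5+/+ replicate 1 one of Pcdhb7.

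**Figure D3:**
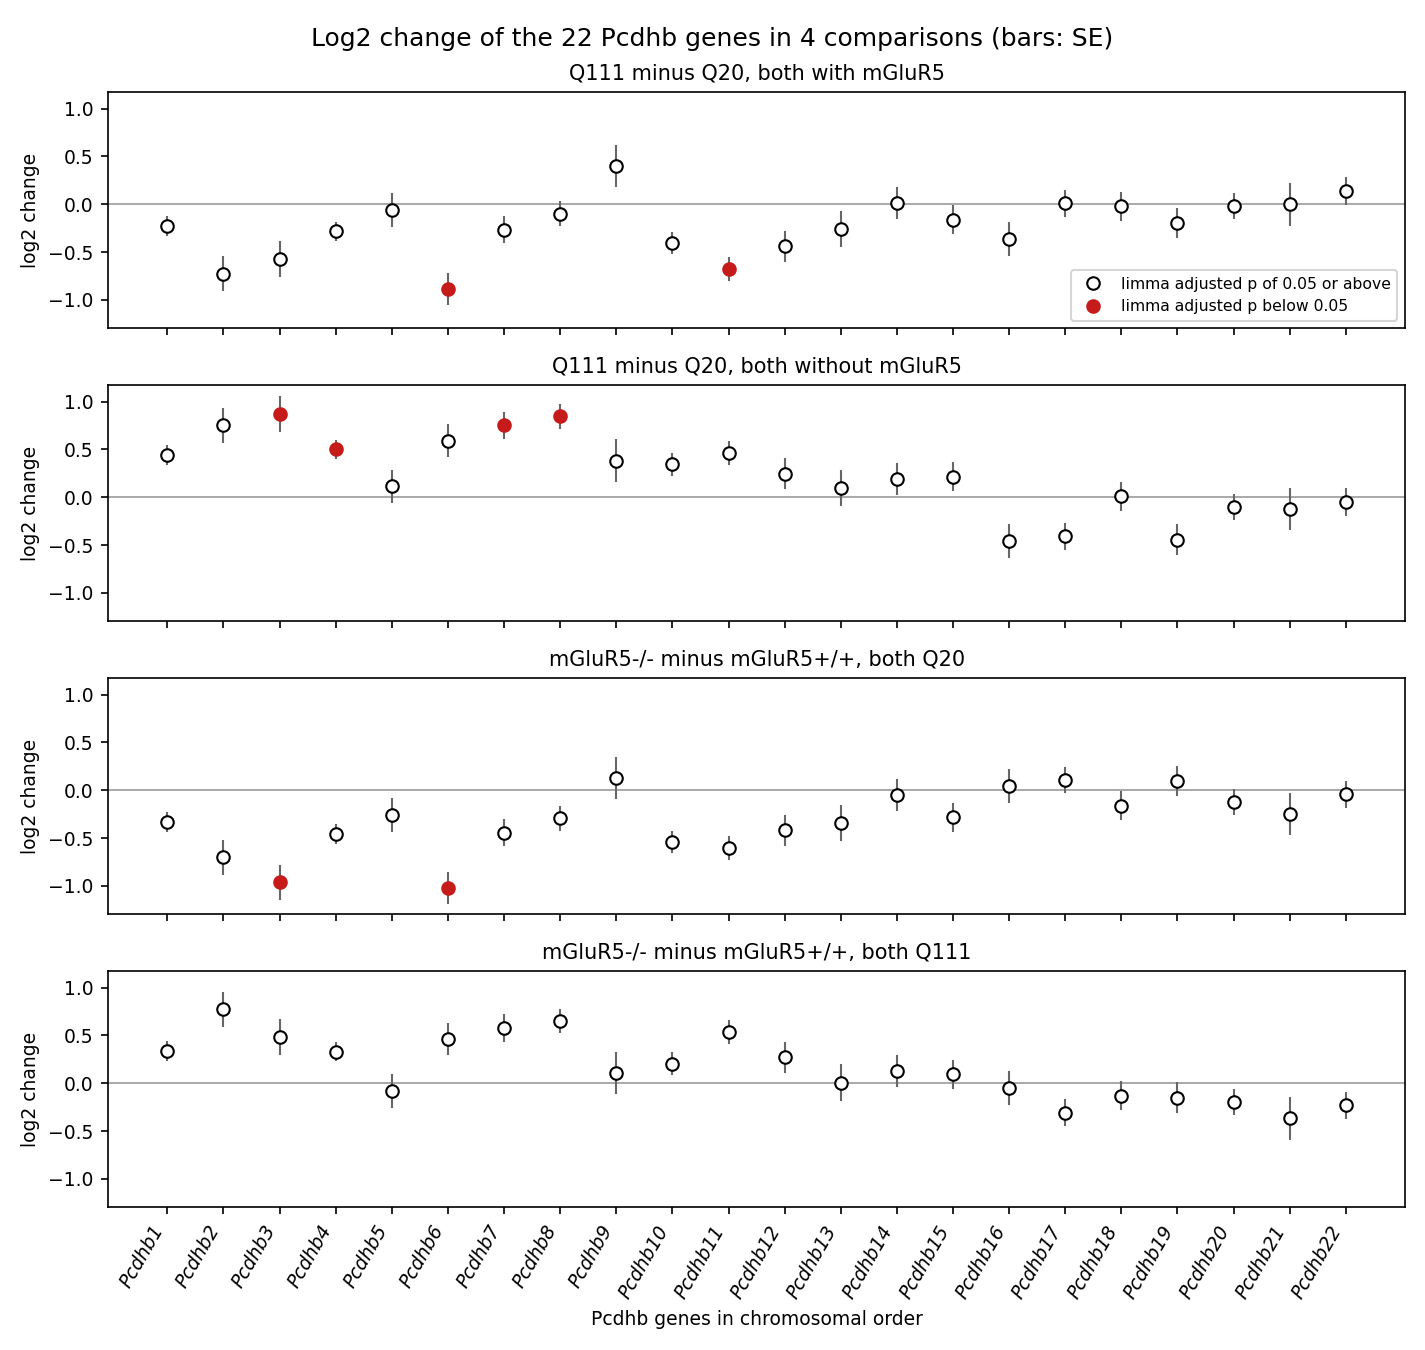
Log2 changes of the 22 Pcdhb genes (vertical axes, bars for the limma SE) in chromosomal order (horizontal axis), with 1 panel for each of 4 comparisons and filled points for called genes. Calls lie among Pcdhb3 to Pcdhb11, with 2 below 0 in each comparison against Q20 mGluR5+/+ mice and 4 above 0 in Q111 mGluR5-/- against Q20 mGluR5-/- mice.

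The double mutant was set directly against the double control. In Q111 mGluR5-/- against Q20 mGluR5+/+ mice 0 protocadherins were called by limma, while 0.556% of all tested genes were. Unadjusted limma p-values were below 0.05 for 10 of 34 protocadherins and for 7.09% of all tested genes. Pcdhb8 came nearest (0.55, 95% interval 0.28 to 0.82, adjusted p = 0.0806), and Pcdhb6 was -0.43 (95% interval -0.78 to -0.07, adjusted p = 0.527). Pcdhb7 was 0.31 (95% interval 0.005 to 0.615, limma adjusted p = 0.691). The intervals held 0 for Pcdhb2 (-0.34 to 0.44), Pcdhb3 (-0.49 to 0.31), Pcdhb4 (-0.17 to 0.26) and Pcdhb11 (-0.41 to 0.12), which leaves room for differences of those sizes. The median difference was -0.24 over Pcdhb13 to Pcdhb22 and -0.075 over the non-clustered genes, against -0.005 over all tested genes.

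The criteria named by the authors (an unadjusted p below 0.05 with a change of 1.5-fold) were also applied. They took in 3 protocadherins, all lower, in Q111 mGluR5+/+ against Q20 mGluR5+/+ mice (0.58% of all tested genes) and 5, all higher, in Q111 mGluR5-/- against Q20 mGluR5-/- mice (0.67%). With loss of mGluR5 they took in 4, all lower, in Q20 mice (0.395%) and 2, both higher, in Q111 mice (0.347%). In the interaction they took in 10, all positive (0.987%), and in Q111 mGluR5-/- against Q20 mGluR5+/+ mice 0 (0.508%).

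Averaged over Pcdhb1 to Pcdhb12, the signal was 7.56, 7.62 and 7.36 in Q111 mGluR5-/- mice, 7.10, 7.25 and 7.03 in Q111 mGluR5+/+ mice, 7.03, 7.09 and 6.85 in Q20 mGluR5-/- mice and 7.22, 7.63 and 7.59 in Q20 mGluR5+/+ mice. Replicate 1 of the Q20 mGluR5+/+ mice was the lowest of its group and lay below replicate 2 of the Q111 mGluR5+/+ mice. Averaged over Pcdhb13 to Pcdhb22, it was 7.69 ± 0.17 in Q111 mGluR5-/- mice, 7.81 ± 0.26 in Q111 mGluR5+/+ mice, 7.80 ± 0.17 in Q20 mGluR5-/- mice and 7.90 ± 0.23 in Q20 mGluR5+/+ mice (SD, n = 3 each). The 4 groups overlapped in that second average, and replicate 2 was the highest array in each group but Q20 mGluR5+/+, where replicate 3 was.

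The variation of the Pcdhb genes within groups was compared between genes. After the group means were taken out, pairs among Pcdhb13 to Pcdhb22 correlated with a median r of 0.79 (45 pairs), pairs among Pcdhb1 to Pcdhb12 with 0.48 (66 pairs) and pairs across the stretches with 0.63 (120 pairs), over 12 arrays. The pairs ran from 0.31 to 0.95 among Pcdhb13 to Pcdhb22, from -0.68 to 0.91 among Pcdhb1 to Pcdhb12 and from -0.69 to 0.96 across the stretches. These values describe genes that share arrays, normalisation and related sequence. The array-wide interquartile range also differed from array to array, and its part in these correlations was not tested.

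**Figure D4:**
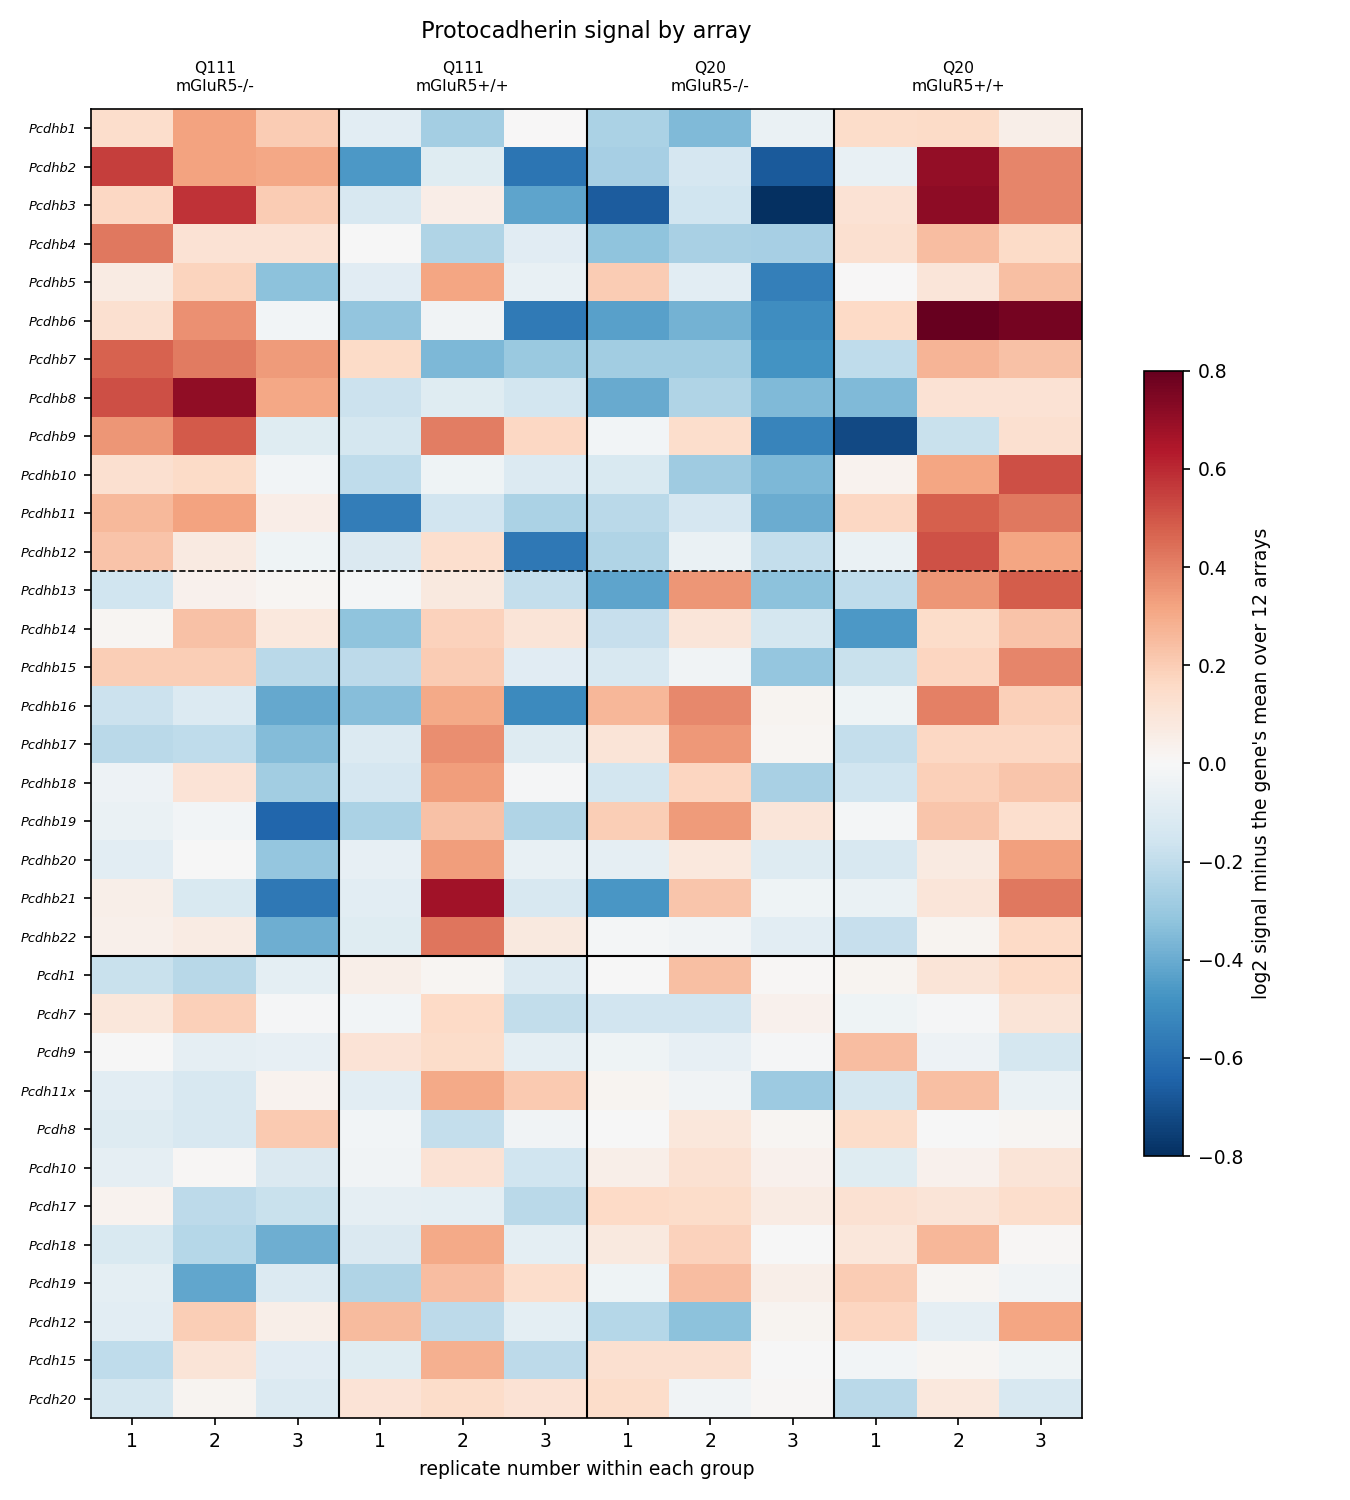
Log2 signal of each of the 34 protocadherins minus its own mean over 12 arrays (colour scale, values beyond it in its end colours), with genes down the page and arrays by group and replicate number across it. Rows Pcdhb1 to Pcdhb12 are mostly below their means in the single-mutant columns, except Pcdhb5 and Pcdhb9.

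The non-clustered protocadherins had 0 calls in all 6 comparisons by limma. Their unadjusted p-values were below 0.05 for 2 of 12 genes in Q111 against Q20 mice with mGluR5 (6.84% of all tested genes) and for 4 of 12 without it (9.44%). For loss of mGluR5 they were so for 1 of 12 in Q20 mice (6.02%) and 1 of 12 in Q111 mice (4.36%), and in the interaction for 1 of 12 (5.37%). In Q111 mGluR5-/- against Q20 mGluR5+/+ mice they were so for 3 of 12 (7.09%).

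The delta1 genes were Pcdh1, Pcdh7, Pcdh9 and Pcdh11x. Pcdh9 averaged 10.75 ± 0.04 in Q111 mGluR5-/- mice, 10.86 ± 0.12 in Q111 mGluR5+/+ mice, 10.77 ± 0.03 in Q20 mGluR5-/- mice and 10.82 ± 0.20 in Q20 mGluR5+/+ mice (SD, n = 3 each). Its interaction was -0.05 (95% interval -0.36 to 0.26). Pcdh7, a guide of axon growth, had an interaction of 0.22 (95% interval -0.09 to 0.54), and Pcdh1, an adhesion protein also found in epithelia and vessels, had -0.13 (95% interval -0.41 to 0.15). Pcdh1 lies beyond the clustered genes on chromosome 18. All Q111 mGluR5-/- arrays of Pcdh1 lay below all Q20 mGluR5-/- arrays (-0.24 ± 0.09, limma adjusted p = 0.395), as in 13.0% of all tested genes.

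The delta2 genes were Pcdh8, Pcdh10, Pcdh17, Pcdh18 and Pcdh19. Pcdh10, which takes part in the growth of striatal axons and in synapse elimination, averaged 10.16 ± 0.06 in Q111 mGluR5-/- mice, 10.19 ± 0.14 in Q111 mGluR5+/+ mice, 10.29 ± 0.05 in Q20 mGluR5-/- mice and 10.23 ± 0.10 in Q20 mGluR5+/+ mice (SD, n = 3 each). The interaction was -0.09 (95% interval -0.37 to 0.19) for Pcdh10, -0.25 (-0.61 to 0.11) for Pcdh18 and -0.27 (-0.68 to 0.13) for Pcdh19, the gene of an X-linked epilepsy in humans. Pcdh18 had 6.38, 6.27 and 6.11 in Q111 mGluR5-/- mice, against 6.58, 6.68 and 6.50 in Q20 mGluR5-/- mice (-0.33 ± 0.12, limma adjusted p = 0.341).

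Pcdh17, a regulator of synapses in circuits between cortex and basal ganglia, is given here because of its values. It had 10.09, 9.85 and 9.88 in Q111 mGluR5-/- mice and 9.99, 9.98 and 9.85 in Q111 mGluR5+/+ mice. It had 10.22, 10.21 and 10.13 in Q20 mGluR5-/- mice and 10.18, 10.16 and 10.20 in Q20 mGluR5+/+ mice. Each Q111 array was lower than each Q20 array, yet the differences were not called (-0.24 ± 0.09 with mGluR5, limma adjusted p = 0.485, and -0.24 ± 0.09 without it, adjusted p = 0.359). Of all tested genes, 5.3% had the Q111 arrays wholly lower in mice with mGluR5 and 13.0% in mice without it. The share with both of these at once, as in Pcdh17, was not computed.

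**Figure D5:**
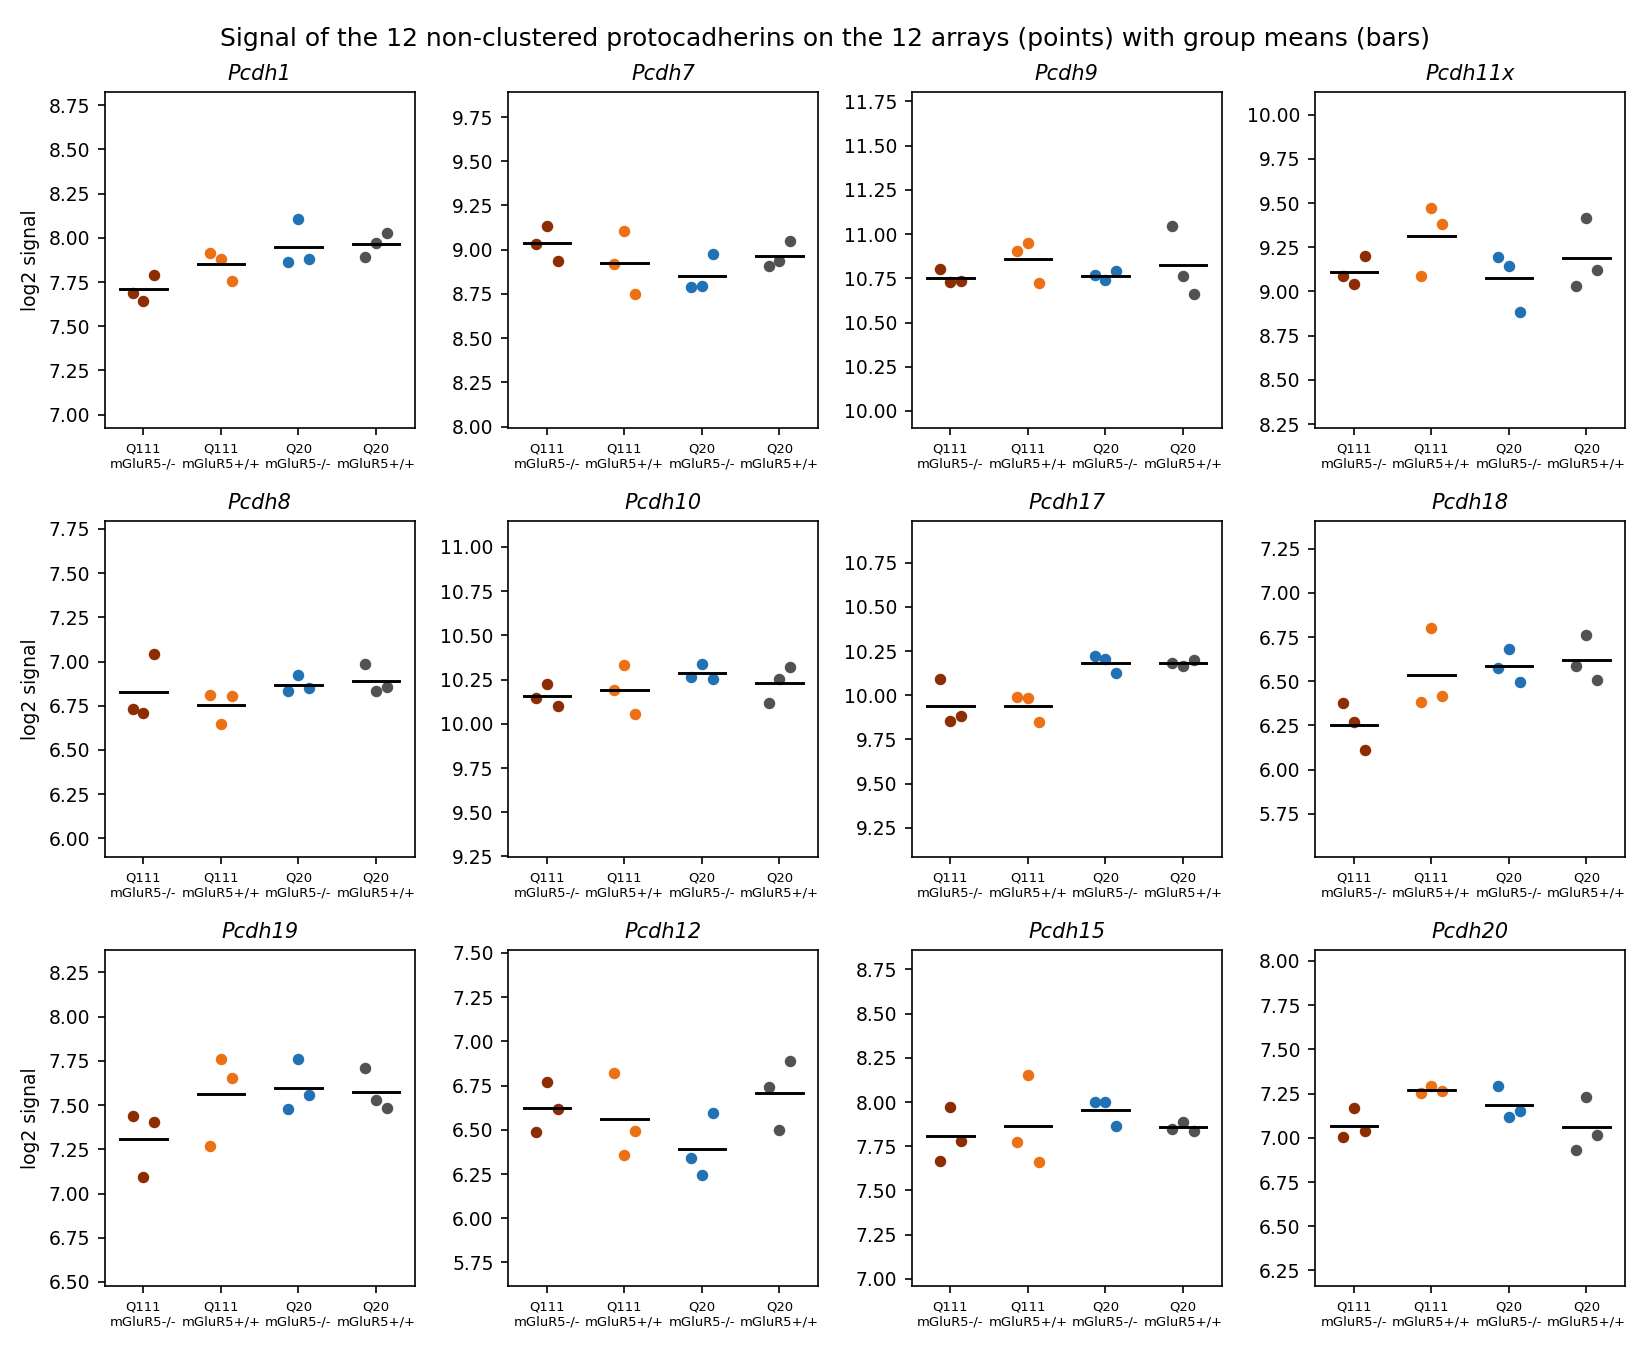
Log2 signal (vertical axes) of the 12 non-clustered protocadherins in each array, with the 4 genotype groups along the horizontal axes, points for arrays and lines for group means. For Pcdh17 the Q111 arrays reach 10.09 at most and the Q20 arrays start at 10.13, and none of the 12 genes was called in the 6 comparisons by limma.

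Of the other non-clustered genes, Pcdh12 is expressed in blood vessels, Pcdh15 forms the tip links of sensory hair cells and Pcdh20 belongs to neither delta class here. Pcdh20 had the smallest unadjusted p of the non-clustered genes in the interaction (-0.33, 95% interval -0.62 to -0.04, limma adjusted p = 0.84). It had 7.00, 7.17 and 7.04 in Q111 mGluR5-/- mice and 7.25, 7.29 and 7.26 in Q111 mGluR5+/+ mice, with 7.29, 7.12 and 7.15 in Q20 mGluR5-/- mice and 6.93, 7.23 and 7.02 in Q20 mGluR5+/+ mice. The Q111 mGluR5-/- arrays lay below the Q111 mGluR5+/+ arrays, while the Q20 arrays overlapped. Pcdh12 had an interaction of 0.38 (95% interval -0.03 to 0.80) and Pcdh15 one of -0.16 (95% interval -0.52 to 0.21).

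Genes that act on or with the protocadherins were also examined, from lists chosen with earlier results known. The regulators of the clusters included Ctcf, cohesin subunits, Smchd1 and DNA methylation enzymes. Of 26 tested, 0 were called in each of the 6 comparisons by limma, and 0 had an unadjusted p below 0.05 in the interaction. Over all tested genes, 0.275% to 0.885% were called, depending on the comparison, and 5.37% had such a p in the interaction. The median interaction of the regulators was -0.08, against -0.01 over all tested genes. Lrif1 (-0.27 ± 0.16), a partner of Smchd1, and Rad21 (-0.21 ± 0.14), a cohesin subunit, had the smallest p-values there. Tet1, which oxidises methylated cytosine, was nearest to a call in Q111 against Q20 mice without mGluR5 (-0.35 ± 0.09, limma adjusted p = 0.0905). In that comparison the median of the regulators was -0.10, against -0.02 over all tested genes. An unadjusted limma p was below 0.05 for 4 of the 26, and for 9.44% of all tested genes. With mGluR5 loss in Q20 mice their median was 0.09, against 0.02, and 0 of the 26 had such a p (6.02% of all tested genes).

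The intracellular partners include the kinases Ptk2 and Ptk2b, the WAVE complex and the gamma-secretase subunits that cleave protocadherins. Of 20 tested, 0 were called in each of the 6 comparisons by limma and 0 had an unadjusted p below 0.05 in the interaction. Over all tested genes, 0.275% to 0.885% were called, depending on the comparison, and 5.37% had such a p in the interaction. The median interaction of the partners was 0.00. Ptk2b, a tyrosine kinase bound by clustered protocadherins, differed by 0.25 ± 0.09 with loss of mGluR5 in Q111 mice (adjusted p = 0.728) and had an interaction of 0.20 ± 0.13. Nckap1, a WAVE complex subunit, also had one of 0.20 ± 0.14.

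Of 34 tested other cadherins 0 were called in the interaction by limma (0.437% of all tested genes were) and 5 had an unadjusted p below 0.05 (5.37% of all tested genes had). Cdh7, a classical cadherin, came nearest (0.74 ± 0.17, adjusted p = 0.0873), and Cdh20 was -0.65 ± 0.19 (adjusted p = 0.375). Cdhr1, a cadherin-related gene of photoreceptors and olfactory neurons, fell by 1.82 ± 0.10 in Q111 mGluR5+/+ against Q20 mGluR5+/+ mice (adjusted p = 8.66e-08) and fell by 1.78 ± 0.10 in Q111 mGluR5-/- against Q20 mGluR5-/- mice (adjusted p = 9.67e-08). Cdh18, a neuronal type II cadherin, fell by 0.51 ± 0.11 in the second of these comparisons (adjusted p = 0.0452).

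Markers of other cell types were set beside the crossing of the Pcdhb genes. None of 61 tested markers in the 9 lists was called in the interaction, while 0.437% of all tested genes were. List medians of the interaction lay between -0.19 for microglia and 0.16 for interneurons. The 10 projection neuron markers had a median interaction of 0.00. Vascular markers (8 of 8 measured) averaged 7.60 to 7.75 over the arrays of Q111 mGluR5-/- mice, 7.45 to 7.72 in Q111 mGluR5+/+ mice, 7.90 to 7.90 in Q20 mGluR5-/- mice and 7.67 to 7.83 in Q20 mGluR5+/+ mice. Among them Abcc9, a channel subunit of pericytes, fell by 0.46 ± 0.08 in Q111 mGluR5-/- against Q20 mGluR5-/- mice (limma adjusted p = 0.0109) and rose by 0.46 ± 0.08 with mGluR5 loss in Q20 mice (limma adjusted p = 0.0203). Choroid plexus markers (5 of 5 measured) ranged from 6.32 to 6.47 in Q111 mGluR5-/- mice, 6.36 to 6.71 in Q111 mGluR5+/+ mice, 6.54 to 7.10 in Q20 mGluR5-/- mice and 6.21 to 6.89 in Q20 mGluR5+/+ mice. The part of these cell types in the protocadherin results was not tested.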

How the data were processed

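The deposited values are log2 signals of each probe set, made by the authors with RMA per the submitters' processing notes, which also name Partek. The series text names Partek Genomics Suite 6.5 and the authors' criteria (ANOVA p under 0.05, 1.5-fold change). Platform annotation gave 1 symbol to 21789 of 35556 probe sets, several to 1621 and none to 12146. Gene order came from RefSeq (GRCm38.p6).

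One probe set per gene was tested where 3 or more arrays put it over their 25th percentile. Each gene was fitted with limma 3.58.1 (R 4.3.3) with 1 mean per group over 12 arrays (8 residual degrees of freedom, prior 6.88), two-sided, with Benjamini-Hochberg adjustment over 16721 genes. The 6 contrasts were the effect of Q111 with and without mGluR5, of mGluR5 loss in mice of either allele, the interaction of both, and the double mutant against the double control. The fit was tested on simulated data. Named were all Pcdhb genes and, of each other class or list, called genes, the highest and lowest mean of a class, and the 2 smallest p-values of the interaction or the comparison described. Members and lists were chosen with earlier results of these data known. Arrays hold no counts, and their number limits precision. Replicate numbers were checked for pairing. Same-numbered arrays deviated from their group means with correlations of -0.04 to 0.22 (number 1), 0.34 to 0.57 (number 2) and -0.14 to 0.46 (number 3). Arrays of different numbers in different groups had -0.56 to 0.45. Of the 12 arrays, 9 correlated best with an array of their own number among the other groups. The labels state no pairing, and the check did not settle it. The main fit left the numbers out, and a fit with them as a block is given below. Plots used matplotlib 3.10.9 (Python 3.11.15).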

Additional observations from a re-analysis of the deposited data

Results flagged for a closer look

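In 7 Pcdhb genes the effect of the Q111 allele differed between mice without and with mGluR5 by the limma test of the interaction itself. The difference of the effects, without minus with the receptor, was 1.48 for Pcdhb2, 1.45 for Pcdhb3, 0.79 for Pcdhb4, 1.48 for Pcdhb6, 1.02 for Pcdhb7, 0.94 for Pcdhb8 and 1.14 for Pcdhb11 on the log2 scale. The same values describe how the effect of mGluR5 loss differed between Q111 and Q20 mice.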

How the results depend on the processing

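The direction of the called Pcdhb genes was the same under all alternatives that gave a value, and the calls depended on the fit. The 7 calls of the interaction became 0 in an unmoderated model, and were between 6 and 10 under the other alternatives on all arrays. The genes called were not always the same. Over 22 alternatives, with fits that left out 1 array among them, Pcdhb6 and Pcdhb11 were called in 21, Pcdhb2 in 17, Pcdhb4 in 15, Pcdhb8 in 12 and Pcdhb7 in 10. Pcdhb3 was called in 12 of 21. Quantile normalisation called Pcdhb1 and did not call Pcdhb2 or Pcdhb3. With Q111 against Q20 the 2 calls in mice with mGluR5 became 0 in a fit of the compared groups alone, 0 unmoderated and 1 with array weights, and the 4 calls in mice without it became 0 unmoderated, 20 with array weights and 8 with the interquartile range as a covariate. With loss of mGluR5 the 2 calls in Q20 mice became 4 in the compared groups alone, 0 unmoderated, 18 with array weights, 7 with the interquartile range and 4 by the authors' criteria. The 0 calls in Q111 mice became 3 with the interquartile range, 2 by the authors' criteria, and 1 with an intensity trend, quantile normalisation, median centring or a filter at the array median. The 0 calls of Q111 mGluR5-/- against Q20 mGluR5+/+ mice became 5 with array weights and 1 with the interquartile range or quantile normalisation. With the interquartile range, calls over all tested genes rose from 93 to 287 in that comparison and from 73 to 153 in the interaction. They rose from 148 to 353 for Q111 against Q20 without mGluR5, and from 50 to 213 and 46 to 150 for loss of mGluR5 in Q20 and Q111 mice. The array weights did not converge, called 3270 and 2120 of all tested genes in the comparisons with 20 and 18 calls, and moved the median interaction of the Pcdhb genes to 0.58 (0.36 without weights).

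The replicate number was also used as a block, a pairing that the check did not settle. The counts were then 4 and 8 for Q111 against Q20 with and without mGluR5, and 6 and 3 for loss of mGluR5 in Q20 and Q111 mice. They were 8 for the interaction and 1 for the double mutant. Calls over all tested genes rose as well, from 96 to 204 and 148 to 343 for Q111 against Q20 with and without mGluR5. They rose from 50 to 129 and 46 to 103 for loss of mGluR5 in Q20 and Q111 mice. For the interaction they rose from 73 to 107, and for the double mutant from 93 to 215. In the data 9 of 12 arrays correlated best with an array of their own number.

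Leaving out 1 array gave 0 to 3 calls and 1 to 6 calls for Q111 against Q20 with and without mGluR5. It gave 0 to 5 and 0 to 1 for loss of mGluR5 in Q20 and Q111 mice, 2 to 8 for the interaction and 0 for the double mutant against the double control. The median interaction lay between 0.23 and 0.54, the higher value without Q20 mGluR5+/+ replicate 1. Pcdhb6 and Pcdhb11 were called in the interaction in all 12 such fits. Its calls numbered 2 without Q20 mGluR5+/+ replicate 3, 3 without Q20 mGluR5+/+ replicate 2, Q20 mGluR5-/- replicate 1 or Q111 mGluR5-/- replicate 1, and 4 without Q20 mGluR5-/- replicates 2 or 3, Q111 mGluR5+/+ replicates 1 or 3, or Q111 mGluR5-/- replicate 2. The cause was not tested.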

Other observations

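The alpha cluster was represented by 1 probe set that carries 14 Pcdha symbols and so names no single gene. It had 7.70, 7.67 and 7.57 in Q111 mGluR5-/- mice, 7.45, 7.66 and 7.41 in Q111 mGluR5+/+ mice, 7.55, 7.54 and 7.60 in Q20 mGluR5-/- mice and 7.40, 7.71 and 7.67 in Q20 mGluR5+/+ mice. The 4 groups overlapped, and the probe set was not tested.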
